A study of Mus musculus with 4 samples.

Results

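The unfolded protein response (UPR) genes described here are 10 genes taken by symbol: the sensor genes Ern1, Eif2ak3 and Atf6, the transcription factor genes Xbp1, Atf4 and Ddit3, and the effector genes Ppp1r15a, Trib3, Herpud1 and Edem1. The symbols matched 11 of the 54532 rows of the deposited expression table, since Ddit3 names 2 rows. The second Ddit3 row (ENSMUSG00000116429) is an entry of 105 bases that lies inside the first, and it had 0 reads in all 4 libraries. The other 10 rows all passed the filter of a mean of at least 1 FPKM (sequenced fragments corrected for the length of the gene and the size of the library) and were tested together with all 11885 genes that passed it. RNA was sequenced from mouse cells labelled as primary lung fibroblasts, in 2 libraries of genotype Calu-KO and 2 of genotype Calu-WT, called WT here. The Calu product calumenin binds calcium in the endoplasmic reticulum (ER), and the study's title concerns protein folding, vimentin and organ fibrosis. Sample titles carry the letters KD for the Calu-KO libraries and NC for the WT libraries. The labels give neither the means of targeting nor the strain and age of the mice, nor do they say whether replicates were separate animals or cultures. The p-values therefore reflect the spread among 4 libraries, and that spread may be technical. In such bulk samples, fewer cells of a type and less RNA per cell cannot be told apart.

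The UPR is the signalling response of the ER to unfolded proteins. IRE1, encoded by Ern1, is a kinase and ribonuclease that cuts a short stretch out of Xbp1 mRNA, so that a potent transcription factor is made from it. PERK, encoded by Eif2ak3, phosphorylates the translation factor eIF2, which slows protein synthesis in general but favours translation of Atf4 mRNA. ATF4 in turn induces Ddit3, Trib3 and Ppp1r15a. ATF6 is cut by proteases of the Golgi apparatus, and its released part induces ER chaperone genes. Fibroblasts carry a heavy secretory load, because they make collagen and other matrix proteins. Much of the pathway acts by cleavage, phosphorylation and splicing, none of which a gene-level mRNA value records.

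Reads recovered from the FPKM values numbered 15635448 to 16510048 in a library. The targeted gene, Calu, had 14.9 and 10.9 FPKM in Calu-KO, against 178 and 177 FPKM in WT. Mitochondrial genes took 2.52% and 4.002% of reads in Calu-KO replicates 1 and 2, against 2.43% and 2.53% in WT replicates 1 and 2. Of 9 fibroblast markers, 6 reached 1 FPKM, among them Col1a1, Col1a2 and Pdgfra, while Dcn and Lum had no reads and Thy1 stayed under 1 FPKM, and the list summed to 1131 to 1376 FPKM in Calu-KO and 1150 to 1157 FPKM in WT. One of the 6, the collagen gene Col3a1, fell to 11.9 and 12.2 FPKM in Calu-KO, against 38.9 and 39.4 FPKM in WT (adjusted p = 0.0115). The other collagen genes of the list lay above WT without passing the limma test. Col1a1 had 146 and 188 FPKM in Calu-KO, against 130 and 121 FPKM in WT (adjusted p = 0.208). Col1a2 had 343 and 394 FPKM in Calu-KO, against 234 and 229 FPKM in WT (adjusted p = 0.0721). Of 5 lung mesenchyme genes only Gli1 reached 1 FPKM in any library, so the lung origin is taken from the labels. Markers of endothelium and epithelium summed to under 1 FPKM in every library, with Cdh5, Kdr, Epcam and Sftpc at 0. Of 6 macrophage markers, Lyz2, Cd14 and Cd68 passed the filter and Adgre1 had no reads. Ptprc had 1 read in each WT library and 0 in Calu-KO. Csf1r had 0.0605 and 0.0981 FPKM in Calu-KO, against 0.150 and 0.210 FPKM in WT. Lyz2, the lysozyme gene, fell to 1.71 and 1.25 FPKM in Calu-KO, against 6.59 and 7.23 FPKM in WT (adjusted p = 0.0254). The macrophage list summed to 6.56 to 7.63 FPKM in Calu-KO and 16.0 to 17.1 FPKM in WT. Mesothelial markers, nearly all from Msln, summed to 22.5 to 25.3 FPKM in Calu-KO and 30.4 to 33.1 FPKM in WT, and pericyte and smooth muscle markers, nearly all from Cspg4, to 30.3 to 45.3 FPKM in Calu-KO and 34.8 to 37.1 FPKM in WT. The part of such cells in the results below was not tested.

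Transcripts of Atf4, Ddit3, Trib3 and Ppp1r15a stood at 33.3% to 72.9% of WT in Calu-KO cells, and those of Xbp1, Herpud1 and Edem1 at 90.1% to 104%. Ppp1r15a fell to 33.3% of its WT level, and it was the one gene of the 10 that passed the test over all genes. Ddit3 stood at 40.9% and Trib3 at 46.5% of WT without passing it. Atf4 stood at 72.9% and Ern1 at 72.5%, and the other 5 genes lay between 90.1% and 107% of WT. Of the 10 genes, then, 1 was called lower and 0 higher, against a background of 1.83% of tested genes called lower, 0.942% called higher and 2.77% called in either direction. In 8 of the 10, both Calu-KO libraries lay below both WT libraries, which held for 29.7% of tested genes. In Edem1 both lay above, which held for 32.0%, and in Atf6 the groups overlapped. Means were at least 1.5-fold lower for 3 of the 10, against 10.1% of tested genes. Their median log2 change was -0.28, beside 0.01 for all tested genes. These genes were brought together with earlier results of the same data known, so the counts are a description.

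**Figure D1:**
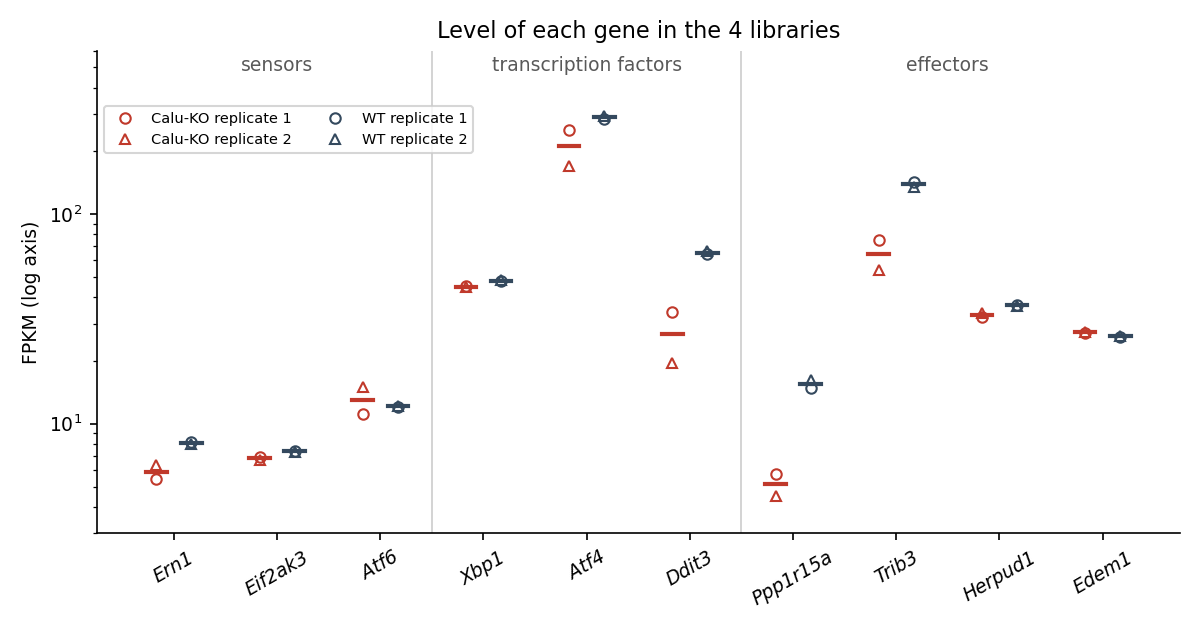
FPKM (log axis) of the 10 UPR genes in the 4 libraries, ordered by role; circles are replicate 1, triangles replicate 2 and bars group means. The Calu-KO symbols of Ddit3, Ppp1r15a and Trib3 lie well below the paired WT symbols, at 40.9%, 33.3% and 46.5% of the WT mean, while those of Xbp1 and Edem1 lie close to them.

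The 10 genes spanned a 41.0-fold range of levels in Calu-KO and a 39.1-fold range in WT. FPKM corrects for gene length, so levels can be set side by side. In Calu-KO the order was Atf4, Trib3, Xbp1, Herpud1, Edem1, Ddit3, Atf6, Eif2ak3, Ern1 and Ppp1r15a. The libraries of Edem1 and Ddit3 overlapped in that order, as did those of Ern1 and Ppp1r15a. In WT the order was Atf4, Trib3, Ddit3, Xbp1, Herpud1, Edem1, Ppp1r15a, Atf6, Ern1 and Eif2ak3, with no overlap between neighbours. Ddit3 thus ranked 6 in Calu-KO and 3 in WT, and Ppp1r15a ranked 10 in Calu-KO and 7 in WT.

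Among the sensors, Ern1 (ENSMUSG00000020715, chromosome 11, 106394650 to 106487852, mm10) had 5.43 and 6.34 FPKM in Calu-KO replicates 1 and 2, against 8.21 and 8.03 FPKM in WT replicates 1 and 2. Both Calu-KO libraries lay below both WT libraries. The log2 change was -0.41 ± 0.12 (SE; adjusted p = 0.143, limma), with a 95% interval of -0.73 to -0.09, so the gene did not pass after adjustment over all genes. At an unadjusted p under 0.05, Ern1, Ddit3, Ppp1r15a and Trib3 passed, 4 of the 10, as did 24.8% of tested genes.

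Eif2ak3 (ENSMUSG00000031668, chromosome 6, 70844515 to 70905245) stood at 6.96 and 6.73 FPKM in Calu-KO, against 7.42 and 7.33 FPKM in WT. The groups did not overlap, but the distance between them was small, with a log2 change of -0.09 ± 0.11 and an interval of -0.37 to 0.19 (adjusted p = 0.609). Atf6 (ENSMUSG00000026663, chromosome 1, 170704674 to 170867771) had 11.1 and 14.9 FPKM in Calu-KO, against 12.1 and 12.1 FPKM in WT. One Calu-KO library lay below the WT pair and the other above it. Its log2 change was 0.08 ± 0.16, with an interval of -0.33 to 0.50 (adjusted p = 0.766), and it turned to -0.018 when the libraries were rescaled to total reads. It was 0.28 without Calu-KO replicate 1 and -0.11 without Calu-KO replicate 2. A lone Calu-KO library shows no spread of its own, so only the sizes of these changes are given here.

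Of the transcription factor genes, Xbp1 (ENSMUSG00000020484, chromosome 11, 5520659 to 5525893) had 45.3 and 44.8 FPKM in Calu-KO, against 47.7 and 48.5 FPKM in WT. The Calu-KO libraries lay below the WT libraries by a small margin, at 93.5% of the WT mean. The log2 change was -0.09 ± 0.10, with an interval of -0.36 to 0.17 (adjusted p = 0.582). These values add the unspliced and the IRE1-spliced form together. The stretch that IRE1 removes is shown for that reason. It was found in the GENCODE M21 transcripts, in GRCm38, as the 26 bases between both cleavage motifs (CNG before the cut and CAG after it), at chr11:5524279-5524304 on the plus strand inside 1 exon. All 3 protein-coding transcripts of the annotation hold it. In the 60 bases below, capitals mark the removed stretch, whose length is not a multiple of 3, so that its removal shifts the reading frame.
Xbp1: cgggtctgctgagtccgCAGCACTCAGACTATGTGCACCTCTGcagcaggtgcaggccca

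Atf4 (ENSMUSG00000042406, chromosome 15, 80255184 to 80257541), the factor made when eIF2 is phosphorylated, was the most abundant of the 10 transcripts in both groups. It had 251 and 169 FPKM in Calu-KO, against 282 and 295 FPKM in WT. Both Calu-KO libraries were below WT, replicate 2 much further than replicate 1. The log2 change was -0.48 ± 0.21, with an interval of -1.02 to 0.06 (adjusted p = 0.233). It was -0.77 without Calu-KO replicate 1 and -0.20 without Calu-KO replicate 2.

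Ddit3 (ENSMUSG00000025408, chromosome 10, 127290774 to 127296288) encodes CHOP, a transcription factor that promotes cell death under lasting ER stress. It had 34.1 and 19.4 FPKM in Calu-KO, from 988 and 486 reads, against 64.2 and 66.7 FPKM in WT, from 1801 and 1897 reads. The groups were far apart, and the Calu-KO libraries also differed from each other. The log2 change was -1.31 ± 0.27, with an interval of -1.997 to -0.62 (adjusted p = 0.0796). Its 3' end overlaps 68 bases of Mars, a tRNA synthetase gene on the other strand that had 54.7 and 72.0 FPKM in Calu-KO, against 61.5 and 58.5 FPKM in WT. The use of strand in counting is not given in the sources used here.

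Of the effector genes, Ppp1r15a (ENSMUSG00000040435, chromosome 7, 45522916 to 45526268) encodes GADD34, which brings a phosphatase to eIF2 and so restores translation. It had 5.76 and 4.50 FPKM in Calu-KO, from 286 and 193 reads, against 14.7 and 16.1 FPKM in WT, from 709 and 784 reads. Both Calu-KO libraries lay far below the lower WT library. The mean fell to 5.13 ± 0.893 FPKM in Calu-KO, against 15.4 ± 0.937 FPKM in WT (SD, n = 2 each), a log2 change of -1.43 ± 0.15 (adjusted p = 0.0266). The call was lost without WT replicate 1 (adjusted p = 0.0930), without WT replicate 2 (0.112) and with no filter on low values (0.113). Tulp2, on the other strand, shares 717 bases with its 3' end and had 0.432 and 0.456 FPKM in Calu-KO, from 23 and 21 reads, against 1.73 and 1.82 FPKM in WT, from 89 and 95 reads. Without strand, reads of the shared stretch cannot be told apart. Ppp1r15b, the constitutive relative of Ppp1r15a, had 49.3 and 58.2 FPKM in Calu-KO, against 38.2 and 39.2 FPKM in WT, a log2 change of 0.46 ± 0.13 that did not pass (adjusted p = 0.125).

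Trib3 (ENSMUSG00000032715, chromosome 2, 152337422 to 152344032), a pseudokinase induced by ATF4 and CHOP that binds the kinase AKT, had 74.8 and 54.2 FPKM in Calu-KO. It had 142 and 135 FPKM in WT. Both Calu-KO libraries were far below WT, and the log2 change was -1.11 ± 0.18, with an interval of -1.57 to -0.65. The adjusted p of 0.0534 lay just above the threshold of 0.05. Trib3 passed in 6 of 15 alternative settings. The 6 include the fits with a lone Calu-KO library, which shows no spread of its own. Besides those fits, Trib3 passed with the filter at a mean of 5 FPKM (adjusted p = 0.0473), with the replicate block (0.0246) and with voom on the recovered reads (0.0160). It also passed with the trends on GC content and gene length removed (0.0299). It did not pass with no filter on low values (0.158), without WT replicate 1 (0.283) or without WT replicate 2 (0.231).

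Herpud1 and Edem1 act in ER-associated degradation, the route by which misfolded proteins leave the ER. Herpud1 (ENSMUSG00000031770, chromosome 8, 94386438 to 94395377), a membrane component of the degradation complex, had 32.3 and 33.7 FPKM in Calu-KO, against 36.9 and 36.4 FPKM in WT. Its log2 change was -0.15 ± 0.10, with an interval of -0.41 to 0.12 (adjusted p = 0.408), although the groups did not overlap. Edem1 (ENSMUSG00000030104, chromosome 6, 108828641 to 108859356), which trims mannose from misfolded glycoproteins and is a target of XBP1, had 27.2 and 27.3 FPKM in Calu-KO, against 26.0 and 26.3 FPKM in WT. It was the one gene of the 10 with both Calu-KO libraries above WT, by a log2 change of 0.06 ± 0.10 and an interval of -0.20 to 0.32 (adjusted p = 0.746). That value turned to -0.048 with rescaling to total reads.

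**Figure D2:**
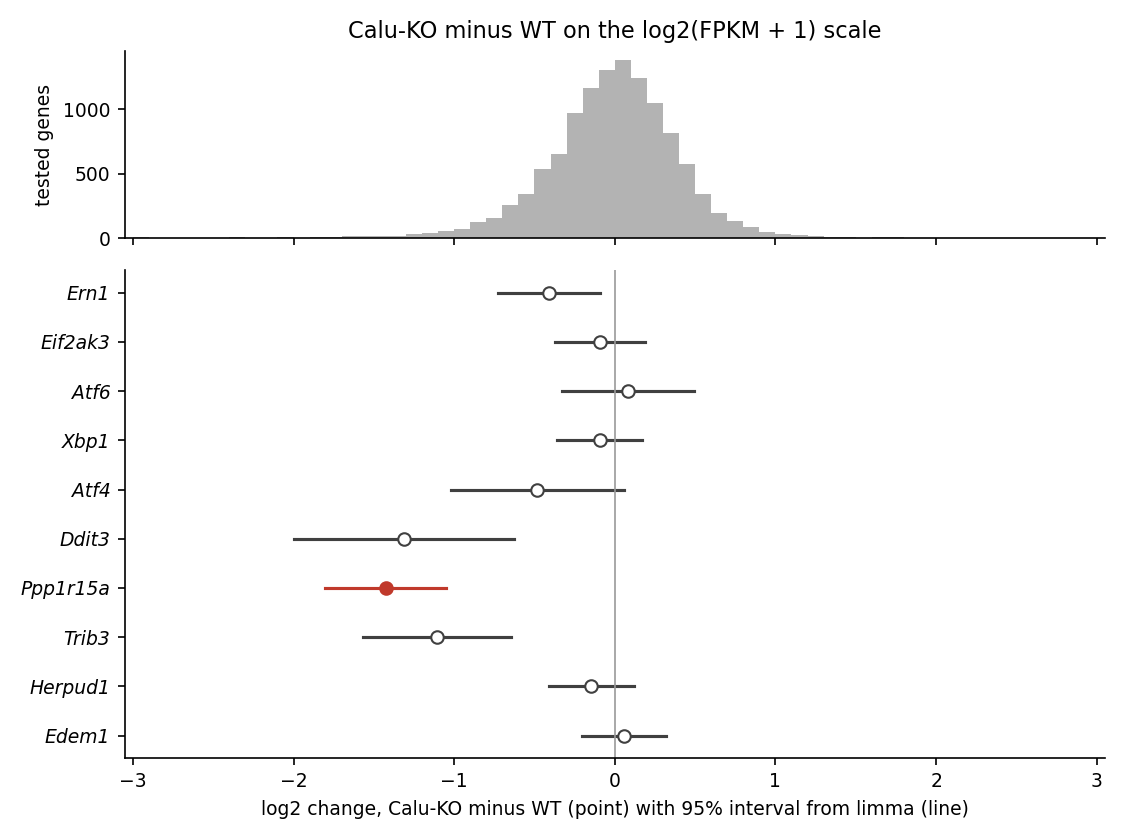
Top, number of tested genes in bins of log2 change, Calu-KO minus WT on the log2(FPKM + 1) scale, with values beyond 3 placed in the end bins. Bottom, the log2 change of each UPR gene with its 95% interval from limma on the same axis; the filled point, Ppp1r15a at -1.43, passed the test, and the intervals of Ern1, Ddit3 and Trib3 also lie below 0.

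Atf4, Ddit3, Trib3 and Ppp1r15a also differed between the Calu-KO libraries. Between Calu-KO replicates 2 and 1, the ratio of Ddit3 was 0.569, with a 95% counting interval of 0.510 to 0.635. The ratio was 0.674 for Atf4, 0.724 for Trib3 and 0.781 for Ppp1r15a, and all 4 were lower in replicate 2. Atf6 and Ern1 were higher in replicate 2, with ratios of 1.34 and 1.17. For these 6 of the 10 genes the difference exceeded counting error, as it did for 61.9% of tested genes. Between the WT libraries 2 of the 10 differed by more than counting error, Atf4 with a ratio of 1.04 and Trib3 with 0.948, against 22.1% of tested genes. Xbp1, Eif2ak3, Herpud1 and Edem1 agreed within counting error in both pairs. Counting intervals cover counting error only. Across genes, log2 expression of Calu-KO replicate 1 had a correlation of 0.966 with Calu-KO replicate 2 and of 0.964 with each WT library. For Calu-KO replicate 2 it was 0.938 with WT replicate 1 and 0.939 with WT replicate 2, and between the WT libraries 0.989. Calu-KO replicate 2 also had the higher mitochondrial share and the lower Calu level given above, and the part of these in its values was not tested.

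**Figure D3:**
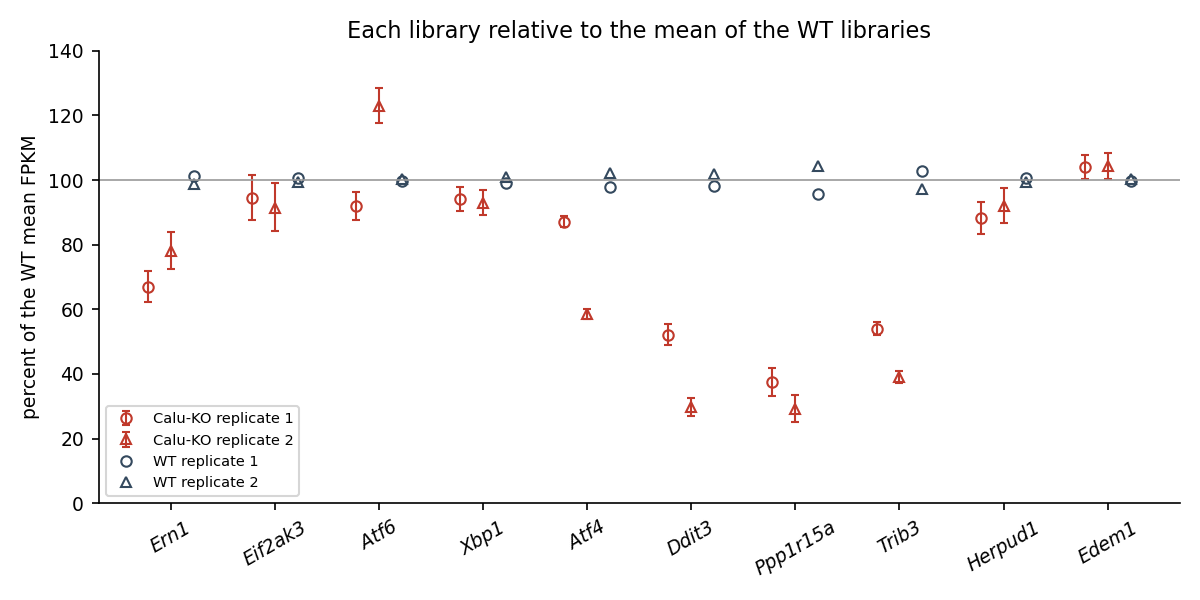
Level of each UPR gene in each library as a percentage of the WT mean. Error bars on the Calu-KO symbols are exact 95% Poisson counting limits of that library. Calu-KO replicate 2 lies below replicate 1 for Atf4, Ddit3, Ppp1r15a and Trib3 and above it for Ern1 and Atf6.

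Within a library, Ddit3, Ppp1r15a and Trib3 can also be set against Atf4 itself. The ratio of Ddit3 to Atf4 FPKM was 0.136 and 0.115 in Calu-KO, against 0.227 and 0.226 in WT. That of Ppp1r15a to Atf4 was 0.0229 and 0.0266 in Calu-KO, against 0.0522 and 0.0546 in WT. For Trib3 to Atf4 it was 0.298 and 0.320 in Calu-KO, against 0.504 and 0.458 in WT. All 3 ratios, which share Atf4 as denominator, were lower in both Calu-KO libraries than in both WT libraries. How often this held for the ratio of other tested genes to Atf4 was not computed. With 2 libraries a group no exact permutation test of such a ratio can give a two-sided p below 0.333. Trib3 and Ddit3 kept more nearly to each other, at ratios of 2.19 and 2.79 in Calu-KO and 2.22 and 2.02 in WT.

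Genes rich in G and C tended to lower values in Calu-KO: the median log2 change was 0.17 in tested genes of up to 44.8% GC and -0.16 in those above 55.7%. The transcripts of Trib3 averaged 59.9% GC, those of Atf4 55.5%, Ppp1r15a 55.2% and Ddit3 52.3%, beside a median of 50.3% for tested genes. With trends on GC content and gene length removed, the log2 change was -1.27 for Ppp1r15a (adjusted p = 0.0178), -1.14 for Ddit3 (0.0522), -0.81 for Trib3 (0.0299) and -0.27 for Atf4 (0.302). Those of Atf6 and Edem1 turned to -0.17 and -0.14.

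Promoter sequences of the 3 genes furthest below WT are printed here, with that of Herpud1 as a gene of the group that stayed near WT. They run from 250 bases before the annotated start to 30 after it, from RefSeq on GRCm38.p6, and 9 of the 10 genes had an entry. Capitals mark motif matches. The Ppp1r15a window is chr7:45526239-45526518 on the minus strand, Ddit3 chr10:127290543-127290822 plus, Trib3 chr2:152344031-152344310 minus and Herpud1 chr8:94386179-94386458 plus.
Ppp1r15a: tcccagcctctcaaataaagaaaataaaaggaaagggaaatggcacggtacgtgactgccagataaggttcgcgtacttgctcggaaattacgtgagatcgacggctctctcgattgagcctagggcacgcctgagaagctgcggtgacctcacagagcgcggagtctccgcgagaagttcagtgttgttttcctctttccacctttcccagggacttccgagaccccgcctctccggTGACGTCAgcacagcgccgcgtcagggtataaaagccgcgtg
Ddit3: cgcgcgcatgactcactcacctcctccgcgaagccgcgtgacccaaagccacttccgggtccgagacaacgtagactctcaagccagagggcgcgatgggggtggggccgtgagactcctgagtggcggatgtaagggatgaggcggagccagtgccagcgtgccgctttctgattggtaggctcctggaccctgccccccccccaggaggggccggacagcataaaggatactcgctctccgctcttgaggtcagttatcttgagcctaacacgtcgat
Trib3: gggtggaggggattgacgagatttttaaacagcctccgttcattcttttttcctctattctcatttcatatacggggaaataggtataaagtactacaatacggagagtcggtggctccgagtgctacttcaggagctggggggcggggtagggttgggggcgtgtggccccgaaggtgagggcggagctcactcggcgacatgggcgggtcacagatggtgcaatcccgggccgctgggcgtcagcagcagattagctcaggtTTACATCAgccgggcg
Herpud1: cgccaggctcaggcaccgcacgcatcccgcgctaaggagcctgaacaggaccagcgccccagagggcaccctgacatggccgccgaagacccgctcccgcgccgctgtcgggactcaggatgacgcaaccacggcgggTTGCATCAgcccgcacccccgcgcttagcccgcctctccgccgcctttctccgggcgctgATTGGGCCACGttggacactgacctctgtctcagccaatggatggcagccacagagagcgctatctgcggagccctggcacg

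Motifs were searched on both strands in windows that run 50 bases past the start. The ATF4 composite element, searched as TGATGNAA, was found in Trib3 (TTACATCA, bases 15 to 22 after the start) and in Herpud1 (TTGCATCA, -112 to -105), and in 3.97% of all 32851 windows. The ER stress response element II, ATTGG and CCACG with 1 base between, was found in Herpud1 at -52 to -42 and in 0.0365% of windows. The first ER stress response element, CCAAT and CCACG with 9 bases between, and the core bound by ATF6 and XBP1, TGACGTG, had no match in the 9 windows and matched 0.119% and 2.01% of all. The cyclic AMP response element TGACGTCA, a letter string looked for after the sequences had been seen, matched in Ppp1r15a at -12 to -5 and in 1.79% of windows. No searched motif overlapped another, and the Ddit3 window held none of them. A match is a string of letters and not a measured binding site.

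Genes around these 10 were described with 5 lists, whose contents were also chosen with earlier results of these data known. Of 15 ER chaperones and folding factors induced by ATF6 and XBP1, 2 fell and 0 rose, and the median log2 change was -0.42. Of all tested genes 1.83% were called lower and 0.942% higher, and their median was 0.01. The chaperone cofactor gene Sdf2l1 had 31.6 and 31.6 FPKM in Calu-KO, against 75.2 and 67.6 FPKM in WT (log2 change -1.15 ± 0.11, adjusted p = 0.0266). Creld2, an ER stress-inducible secreted protein, had 53.9 and 47.1 FPKM in Calu-KO, against 110 and 102 FPKM in WT (-1.06 ± 0.12, adjusted p = 0.0311). Hspa5, the ER chaperone BiP, did not pass, at 506 and 603 FPKM in Calu-KO against 819 and 830 FPKM in WT (-0.58 ± 0.14, adjusted p = 0.105). Dnajb9 lay above WT without passing, at 31.3 and 26.8 FPKM in Calu-KO against 19.1 and 20.7 FPKM in WT (0.52 ± 0.13, adjusted p = 0.102). Log2 changes of 13 of the 15 were negative, beside 49.3% of all tested genes.

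Among 22 tested regulators of the UPR and of eIF2, 1 fell and 0 rose, against 1.83% and 0.942% of all tested genes, with a median of -0.09 beside 0.01. That gene was Atf6b, the close relative of Atf6, which had 18.4 and 17.6 FPKM in Calu-KO, against 35.2 and 33.5 FPKM in WT (log2 change -0.90 ± 0.11, adjusted p = 0.0316). Its libraries did not overlap between groups, unlike those of Atf6. The difference between the changes of the 2 genes was not tested. Mbtps1 and Mbtps2, the proteases that cut ATF6, had log2 changes of 0.32 and -0.01 and did not pass.

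Of 21 tested targets of ATF4 and CHOP, 2 fell and 0 rose, against 1.83% and 0.942% of all tested genes, with a median of -0.29 beside 0.01. Vldlr, a lipoprotein receptor gene, had 0.499 and 0.850 FPKM in Calu-KO, against 7.73 and 7.82 FPKM in WT (log2 change -2.40 ± 0.16, adjusted p = 0.0143). Ero1l, an ER oxidase, had 35.8 and 38.7 FPKM in Calu-KO, against 79.0 and 78.3 FPKM in WT (-1.06 ± 0.11, adjusted p = 0.0266). The list lay on both sides of 0, with log2 changes of 14 of the 21 negative, beside 49.3% of all tested genes. Asns and Psat1, enzymes of asparagine and serine synthesis, had log2 changes of 0.33 and 0.55 without passing, the highest of the list. Of the genes that did not pass, Cebpb, Cth and Ddit4 lay furthest below 0, at -1.20, -0.92 and -0.90. Atf3, a stress-induced transcription factor gene, had 1 read in 1 WT library and none elsewhere, so no fold is given.

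Of 18 tested genes of ER-associated degradation and 6 tested substrates of IRE1 decay in mouse fibroblasts, 0 passed limma after adjustment, and 2 and 3 had an unadjusted p under 0.05, which held for 24.8% of all tested genes. Their medians were -0.06 and -0.17, beside 0.01 for all tested genes. The E3 ligase gene Syvn1 and its partner Sel1l had log2 changes of -0.34 and -0.02. Scara3, one of the IRE1 substrates, had 0.54, and Pdgfrb, another, -0.44.

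**Figure D4:**
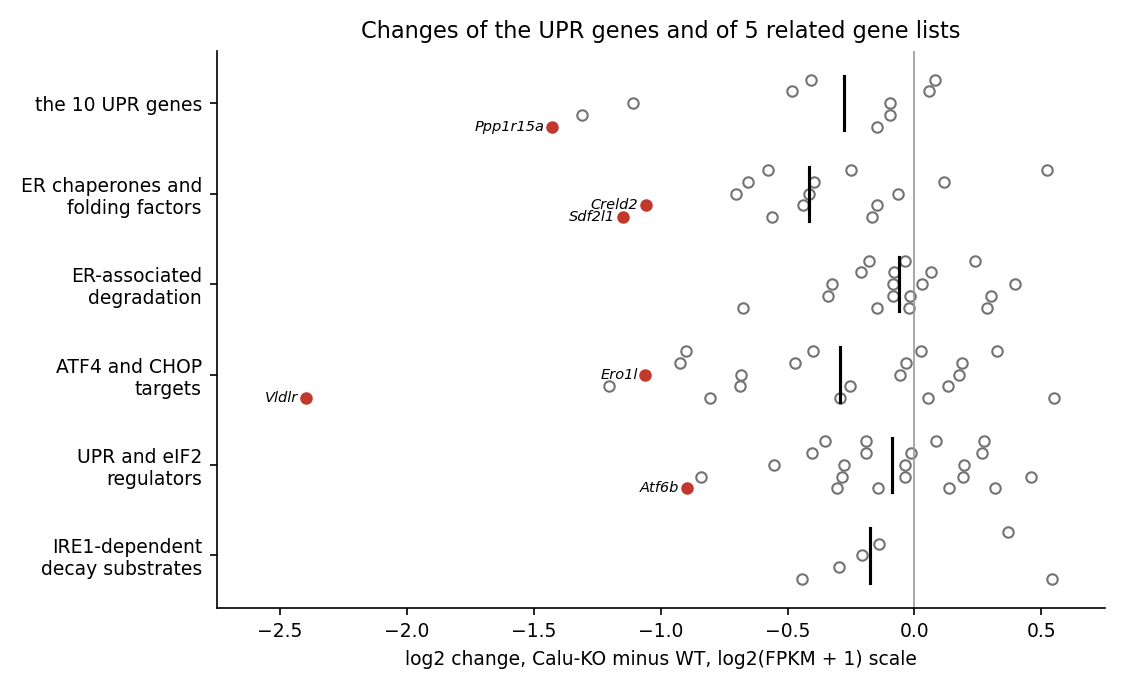
Log2 change, Calu-KO minus WT on the log2(FPKM + 1) scale, of the 10 UPR genes and of the tested genes of 5 related lists; each point is a gene, filled and named where it passed the test, and the black line is the list median. Medians run from -0.42 for ER chaperones and folding factors to -0.06 for ER-associated degradation, and all 6 filled points lie below 0.

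Likeness of profile was measured as the Euclidean distance between centred log2(FPKM + 1) values over the 4 libraries. The tested genes nearest to Ddit3 were G0s2, Pla2g2e and Gm43712, at distances of 0.111 to 0.158. Those nearest to Ppp1r15a were Gm49331, Cox6a2 and 2610524H06Rik (0.0982 to 0.128), and those nearest to Trib3 were Acsf3, Camk2n2 and Scarf1 (0.0826 to 0.102). Xbp1 was nearest to Dcaf6, Sppl3 and Rpf1 (0.0145 to 0.0175). Some of these neighbours were weakly expressed, and changes of such genes come out too small on this scale. Gm43712 had 3 and 0 reads in Calu-KO, against 10 and 9 in WT, and Gm49331 had 12 and 7, against 59 and 62. With 4 libraries such nearness is a description.

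The count of UPR genes called lower was also read against all tested genes under other settings. It was 1 with a pseudocount of 0.1 or 5 (1.35% and 1.93% of tested genes lower), rescaled to total reads (1.28%) or by TMM (1.73%), and with a prior without trend (1.60%) or a robust one (1.78%). It was 2 with a filter at 5 FPKM (1.66%) and with GC and length trends removed (2.43%), and 3 with the replicate block (2.63%) and with voom (3.95%). Without Calu-KO replicate 1 it was 5, namely Ern1, Atf4, Ddit3, Ppp1r15a and Trib3 (23.6%), and without Calu-KO replicate 2 it was 4, the same genes but for Atf4 (9.51%), with the spread then taken from the WT pair alone. Without WT replicate 1 (0.320%), without WT replicate 2 (0.286%) and with no filter (0.0%) it was 0.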

How the data were processed

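Per the labels' protocols and the submitters' processing notes, HISAT2 2.0.5 aligned the reads to mm10. The sources used here name no read counter, annotation or strand setting. The authors deposited 1 table of FPKM values with 1 column per library. Reads per gene were recovered from it, since every value (100%) was a whole multiple, within 0.001 reads, of the worth of 1 read. One read over 1 kb of gene was 0.0591 to 0.0684 FPKM.

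Groups came from the sample descriptions. Values were put on the log2(FPKM + 1) scale, where changes of weakly expressed genes come out too small. Calu-KO was compared with WT over the 11885 genes averaging 1 FPKM or more by limma 3.58.1 in R 4.3.3 (eBayes with an intensity trend, two-sided, no block), adjusted by Benjamini-Hochberg, threshold 0.05. Folds and percentages of WT are ratios of mean FPKM. The steps were tested on simulated data that gave both groups the same spread. A wider spread between the Calu-KO libraries than between the WT libraries was not simulated.

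Named genes were the 10 members, Calu, Hspa5, up to 4 genes past the threshold from each list, and the 3 nearest profiles of 4 members. Other genes were named after their values were seen. The members and lists were chosen with earlier results of these data known. Alternatives were another pseudocount, filter, scaling or prior, a replicate block, removal of GC and length trends, each library left out, and voom on recovered reads.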

Additional observations from a re-analysis of the deposited data

How the results depend on the processing

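Over 15 alternatives Ppp1r15a kept a negative log2 change (-1.59 to -1.01) and passed in 12, the fits with a lone Calu-KO library among them. Apart from the fits with a lone Calu-KO library, Ddit3 (-1.70 to -0.92) passed with the replicate block and with voom. Trib3 (-1.34 to -0.81) passed with these, with a filter at 5 FPKM and with GC and length trends removed. Ern1 (-0.50 to -0.27), Atf4 (-0.77 to -0.20) and Atf6 passed only in fits with a lone Calu-KO library, which shows no spread of its own. The number of UPR genes that passed was 1 in the fit reported, 0 with no filter on low values (limma; 3886 of all genes at an unadjusted p under 0.05, Ppp1r15a at an adjusted p of 0.113), and 2 with a filter at 5 FPKM or with GC and length trends removed. It was 3 (Ddit3, Ppp1r15a, Trib3) with voom, which was chosen after seeing the data, and 0 to 6 with 1 library left out. Both Calu-KO libraries are needed for an estimate of their spread, and without either the spread came from the WT pair alone, the lone library being assumed to vary like it. All tested genes past the threshold numbered 329, but 0 with no filter, 197 rescaled to total reads, 493 with the replicate block, 486 with GC and length trends removed, 830 with voom, and 42 to 5731 with 1 library left out. The log2 change of Atf6 (0.08) was -0.018 rescaled to total reads, -0.17 with GC and length trends removed and -0.11 without Calu-KO replicate 2, and 0.28 (past the threshold) without Calu-KO replicate 1; that of Edem1 (0.06) was -0.048 and -0.14 under the first pair of these settings. Rescaling to total reads also moved the median log2 change of all tested genes, from 0.0072 to -0.088. The transcripts of Atf6 averaged 44.1% GC and those of Edem1 45.0%. The cause of these moves was not tested. With the replicate block, 3 UPR genes passed (Ddit3, Ppp1r15a and Trib3). Deviations of same-numbered libraries from their group means had a correlation of 0.0153 across genes. With 2 libraries a group, that value cannot settle whether same-numbered libraries were prepared together, and the labels do not say. The 2 planned negative binomial count tests were left out since the deposited unit is FPKM, although reads could be recovered. Voom on the recovered reads was run in their place. Each UPR gene had 193 to 11536 reads in a library.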
